A study of Mus musculus with 15 samples.

Results

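The genes followed here are 35 genes of the type I interferon response, listed by name with earlier results of these data known. Each was among the 21839 genes of the deposited count table. All 35 also passed the filter on low counts and were among the 13887 genes tested. RNA was sequenced from lymphatic endothelial cells of C57bl/6 mice aged 10 weeks that had received a transplanted mouse melanoma cell line described as lymphangiogenic. The cells came from the tumor (Tumor), from the lymph node that drains it (TdLN) and from a lymph node that does not (NdLN), with 5 libraries in each group. All groups therefore came from tumor-bearing mice. The labels name no tumor-free group, do not name the melanoma line and do not say whether a library holds cells of 1 animal or of a pool. P-values here measure the spread between these libraries, which may be partly technical. Cells were sorted as CD45neg, CD31+ and gp38+, that is without the pan-leukocyte protein and with the proteins of the genes Pecam1 and Pdpn.

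Type I interferons are secreted proteins that signal a viral or nucleic acid threat. They bind the receptor made of IFNAR1 and IFNAR2, whose kinases JAK1 and TYK2 activate STAT2 and related factors. With IRF9 these form a complex that binds the interferon-stimulated response element (ISRE) and switches on genes that sense foreign nucleic acid, block viral replication and tune the response itself. Lymphatic endothelial cells of a lymph node line the sinuses through which lymph from the upstream tissue passes. The genes are described below by role, as sensors, transcription factors, oligoadenylate synthetases, IFIT proteins, the ISG15 system, restriction factors and other induced genes.

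Total counts per library ran from 31894931 to 37437282 in NdLN, from 32134127 to 37043976 in TdLN and from 23830337 to 34577494 in Tumor libraries. Levels are given as CPM, counts scaled to 1 common library total with edgeR's TMM factor, and as mean ± SD over 5 libraries. Prox1, the transcription factor that defines lymphatic endothelium, stood at 766 ± 52.9 CPM in NdLN, at 539 ± 74.9 in TdLN and at 105 ± 22.7 in Tumor libraries. Of 8 pan-endothelial markers, 8 were lower in Tumor than in TdLN libraries, and their summed share of counts was 0.829% to 0.970% in NdLN, 0.741% to 0.857% in TdLN but 0.225% to 0.348% in Tumor libraries. Of the 10 lymphatic markers, 5 were lower and 2 higher in Tumor than in TdLN libraries, and Stab2, a scavenger receptor of node sinuses, stood at 1054 ± 171 CPM in TdLN and 2.64 ± 1.14 in Tumor libraries. All 8 pigment cell markers in the table were higher in Tumor libraries, where they held 2.65% to 4.12% of counts, against 0.00117% to 0.00325% in TdLN. Macrophage markers were higher for 9 of 11 and fibroblast markers for 8 of 10. They held 0.00781% to 0.0161% and 0.144% to 1.07% of counts in Tumor libraries. In TdLN libraries they held 0.00400% to 0.0131% and 0.0154% to 0.0401%. Over all genes tested, 31.9% were called higher and 30.1% lower in Tumor than in TdLN libraries. Pecam1 stood at 1596 ± 84.7, 1179 ± 87.1 and 276 ± 86.7 CPM and Pdpn at 124 ± 20.7, 120.1 ± 15.4 and 116 ± 46.4 in NdLN, TdLN and Tumor libraries. Ptprc, the gene of the protein that the sort excluded, stood at 5.43 ± 3.77, 1.10 ± 0.943 and 1.68 ± 1.45 CPM in the same order. Of the 5 pan-leukocyte markers, which include Ptprc, Cd53 stood at 34.7 ± 13.6, 43.8 ± 5.73 and 4.53 ± 2.49 CPM. Laptm5 stood at 8.49 ± 5.45, 3.29 ± 1.19 and 10.1 ± 2.21. Together the 5 held 0.00347% to 0.0107% of counts in NdLN, 0.00488% to 0.00779% in TdLN and 0.00171% to 0.00352% in Tumor libraries. Between the nodes 0 of the 5 were called, and 2 fell and 1 rose from TdLN to Tumor. The 9 blood endothelial markers held 0.272% to 0.543% of counts in NdLN, 0.289% to 0.704% in TdLN and 0.0356% to 0.101% in Tumor libraries. Of these 9, 3 were called lower and 0 higher in TdLN than in NdLN libraries (1.64% and 1.84% of all genes). From TdLN to Tumor 4 were called lower and 1 higher (30.1% and 31.9% of all genes). None of the pan-endothelial, blood endothelial, lymphatic, pigment cell, macrophage, fibroblast or pan-leukocyte markers was at 0 in a whole group. Siglech, which marks plasmacytoid dendritic cells, a main source of interferon alpha, had 48, 30 and 8 counts over the groups, and Klk1 and Cox6a2 of the same list were at 0 in TdLN. Of the lymphocyte markers, Ifng was at 0 in TdLN and Tumor and Pax5 in Tumor. In such bulk libraries, fewer cells of a type and less RNA per cell cannot be told apart, and the part of other cells in the interferon response values was not tested.

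The upstream sequences of the genes were searched for the element through which the response is read. RefSeq promoters (GRCm38.p6, 250 bases before to 50 after each start) were matched by symbol to 26 of the 35 genes. The ISRE core, GAAANNGAAA on either strand, was found in 12 of the 26 (46.2%), against 3.94% of the 10818 tested genes with a promoter and 3.44% of all 32851 promoters of the same length. The longer form GAAANNGAAACT, which contains the core, was found in 6 of the 26 (23.1%), against 0.453% of tested genes and 0.271% of all promoters. TTCNNNGAA, the gamma-activated site, which is its own reverse complement, was found in 6 of the 26 (23.1%), against 8.24% of tested genes and 8.3% of all promoters. Shown are 5 promoters of genes that the results below turn on or that define the family, each upstream of the start, 5′ to 3′ on the strand of the gene, with core matches on either strand in capitals. All 5 hold a core match, which most of the 26 genes do not. Oas1a and Isg15 hold overlapping matches, which run together in the capitals. In Ifit1 and Rsad2 the matches lie on the opposite strand. The nearest match lay 4 bases upstream of the RefSeq start in Oas1a, 56 in Isg15, 65 in Oas3, 75 in Ifit1 and 110 in Rsad2; the letters of Oas3 and Ifit1 end earlier, at the start that GENCODE M21 gives. The windows are chr5:120907526-120907675 (minus strand) for Oas1a, chr5:120777662-120777809 (minus strand) for Oas3, chr19:34640739-34640870 (plus strand) for Ifit1, chr4:156200819-156200968 (minus strand) for Isg15 and chr12:26456453-26456602 (minus strand) for Rsad2.
Oas1a: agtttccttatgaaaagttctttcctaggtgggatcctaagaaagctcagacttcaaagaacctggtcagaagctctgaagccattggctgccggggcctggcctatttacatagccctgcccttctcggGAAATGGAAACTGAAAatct
Oas3: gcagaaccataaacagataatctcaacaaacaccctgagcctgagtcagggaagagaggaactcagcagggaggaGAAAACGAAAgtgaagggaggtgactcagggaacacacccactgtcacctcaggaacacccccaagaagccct
Ifit1: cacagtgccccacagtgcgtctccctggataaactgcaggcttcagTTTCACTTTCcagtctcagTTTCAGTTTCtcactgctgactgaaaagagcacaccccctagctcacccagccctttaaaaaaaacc
Isg15: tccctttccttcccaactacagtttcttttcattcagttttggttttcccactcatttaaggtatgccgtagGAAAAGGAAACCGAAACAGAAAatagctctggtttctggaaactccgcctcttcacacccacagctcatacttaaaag
Rsad2: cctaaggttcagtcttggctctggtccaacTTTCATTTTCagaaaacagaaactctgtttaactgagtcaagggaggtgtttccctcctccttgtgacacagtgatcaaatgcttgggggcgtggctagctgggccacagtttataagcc
A match describes letters in this window and no binding was measured. Of these 5 genes, Oas1a, Oas3 and Rsad2 had their highest mean in Tumor libraries, and Ifit1 and Isg15 had it in TdLN libraries, so genes with a core match stood on both sides.

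Within each group 1 library stood above the others for most of the genes. NdLN 4 was the highest of the NdLN libraries for 33 of the 35 genes (94.3%), while it was the highest for 15.5% of all genes tested. Tumor 5 was the highest of the Tumor libraries for 30 (85.7%, against 21.02% of all genes), and TdLN 3 of the TdLN libraries for 21 (60%, against 17.3%). TdLN 3 and Tumor 5 stood above their group's mean for 35 of the 35 genes, and NdLN 4 for 34. The genes' median distance from the group mean was 0.50 in NdLN 4, 0.23 in TdLN 3 and 0.43 in Tumor 5 on the log2 scale. Tumor 2 was the lowest Tumor library for 21 genes, and its median distance was -0.35. The summed CPM of the 35 genes ran from 3028 to 5183 in NdLN, from 4603 to 6395 in TdLN and from 1972 to 3651 in Tumor libraries, so the highest NdLN library lay within the TdLN range and the highest Tumor library within the NdLN range.

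**Figure D1:**
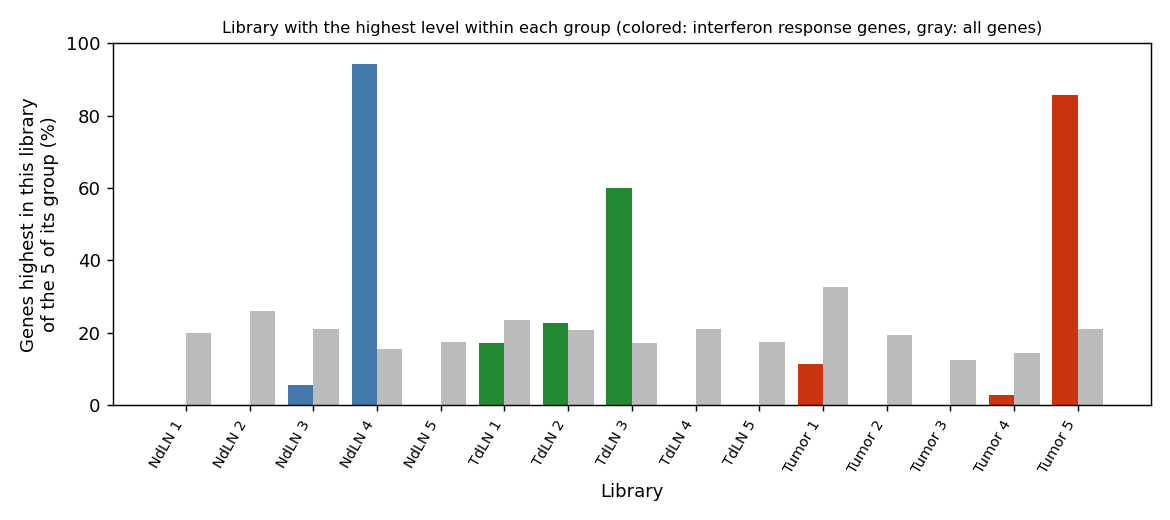
Percentage of genes for which a library was the highest of the 5 in its group (vertical axis) by library (horizontal axis), for the 35 interferon response genes (colored bars) and for all 13887 genes tested (gray bars). NdLN 4, TdLN 3 and Tumor 5 were the highest for 94.3%, 60% and 85.7% of the interferon response genes.

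Other values of these libraries stand beside that pattern, and their part in it was not tested. Ifnb1, the gene of interferon beta, had 12 counts in Tumor 5, 4 in Tumor 2, 4 in TdLN 2 and 0 in the other 12 libraries, so NdLN 4 and TdLN 3 had none. Ptprc stood at 6.51 CPM in NdLN 4, between the lowest and the highest NdLN library, at 2.36 in TdLN 3, the highest of its group, and at 1.07 in Tumor 5. Cxcl9, a chemokine gene that interferon gamma induces and that was chosen here after its values were seen, stood at 366.6 CPM in TdLN 3 and 257 in Tumor 5, each the highest of its group. In NdLN 4 it stood at 28.7 CPM, below 2 other NdLN libraries. Prox1 stood at 785, 625 and 90.9 CPM in NdLN 4, TdLN 3 and Tumor 5.

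The draining node was compared with the non-draining node to ask which genes differ in lymphatic cells of the node that receives lymph from the tumor. Every one of the 35 genes had a log2 fold change above 0, while 49% of all genes tested did. The list was chosen with earlier results of these data known, and many of its genes were highest in the same library. They are therefore not 35 separate observations to set against that share. Parp14 stood at -0.01 with limma's voom and at -0.00406 without TdLN 3. The median was 0.49, with a range of 0.09 to 1.55, against -0.01 over all genes. Only 3 genes passed the test (edgeR's quasi-likelihood test, Benjamini-Hochberg adjusted p under 0.05), all higher in TdLN: the nucleic acid sensors Zbp1 and Eif2ak2 and the oligoadenylate synthetase Oas1a. They were 8.57% of the genes, where 1.84% of all genes tested were called higher. None was called lower, where 1.64% of all genes were, and at an unadjusted p under 0.05 the number was 19 higher (17.6% of all genes in either direction) and 0 lower, while DESeq2 and limma's voom also called 0 lower. For 4 genes, these 3 and Oasl1, all TdLN libraries lay above all NdLN libraries, where 2.87% of all genes did so. Without NdLN 4, 9 genes were called higher, while the calls over all genes, in either direction, went from 484 of 13887 to 277 of 14120. The added calls were Ifi44, Ifit2, Oasl1, Oasl2, Rsad2 and Trim30a. Without NdLN 4, TdLN 3 and Tumor 5 together, 9 were called higher and 0 lower, with 181 calls over all 13926 genes. These libraries were picked because most of the 35 genes were highest in them, so the fits without them are no independent check. Leaving out the NdLN library in which most of the genes were highest raises their difference from TdLN by construction.

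The Tumor libraries were compared with the TdLN libraries to set the tumor's lymphatic cells against those of its node. Of the 35 genes, 27 fell (77.1%, where 30.1% of all genes tested were called lower) and 1, Rsad2, rose (2.86%, against 31.9%). The genes that were not called were Oas1a, Oas2, Oas3, Ifit3, Herc6, Cmpk2 and Ifi35. The median log2 fold change was -1.07, with a range of -2.04 to 1.39, against 0.04 over all genes. For 20 genes all Tumor libraries lay below all TdLN libraries (57.1%, against 22.5% of all genes). The pan-endothelial markers had a median of -1.61 in the same comparison. Without the 3 libraries named above together, 29 genes were called lower and 1 higher. The calls over all genes, in either direction, went from 8614 of 13887 to 7990 of 13926.

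The Tumor libraries were also compared with the NdLN libraries. Here 16 genes fell (45.7%, against 32.5% of all genes tested) and 3 rose, Oas1a, Oas3 and Rsad2 (8.57%, against 34%). The median log2 fold change was -0.42, with a range of -1.90 to 2.49, against 0.04 over all genes. For 8 genes all Tumor libraries lay below all NdLN libraries (22.9%, against 27% of all genes), a share under that of all genes. The pan-endothelial markers had a median of -2.05. Without NdLN 4, TdLN 3 and Tumor 5 together, 16 genes were called lower and 5 higher, the additions to the latter being Ifit3 and Cmpk2. Over all genes the calls in either direction went from 9230 of 13887 to 8753 of 13926. Each group enters 2 of the 3 comparisons, so the comparisons share libraries and are not independent of each other. Over the 3 groups, TdLN had the highest mean for 31 genes and Tumor for 4, Oas1a, Oas3, Ifit3 and Rsad2. The lowest mean was in Tumor for 27 genes and in NdLN for the other 8, which were Zbp1, Oas1a, Oas2, Oas3, Ifit3, Rsad2, Cmpk2 and Ifi35.

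Set out by role, the order of the comparisons differed between families. The transcription factors had the lowest median log2 fold change from TdLN to Tumor, -1.62, followed by the sensors at -1.26, the IFIT proteins at -1.21, the other induced genes at -1.19, the oligoadenylate synthetases at -0.94, the ISG15 system at -0.88 and the restriction factors at -0.67. Between the nodes the oligoadenylate synthetases had the highest median, 1.10, and the IFIT proteins the lowest, 0.27. From NdLN to Tumor the oligoadenylate synthetases were the only role with a median above 0, at 0.41, which is the value of Oas2 and was -0.064 for that gene without Tumor 5. The transcription factors had the lowest median, -1.17. The roles hold 3 to 7 genes each, and differences between them were not tested. The plot of log2 fold changes shows all 3 comparisons gene by gene.

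**Figure D2:**
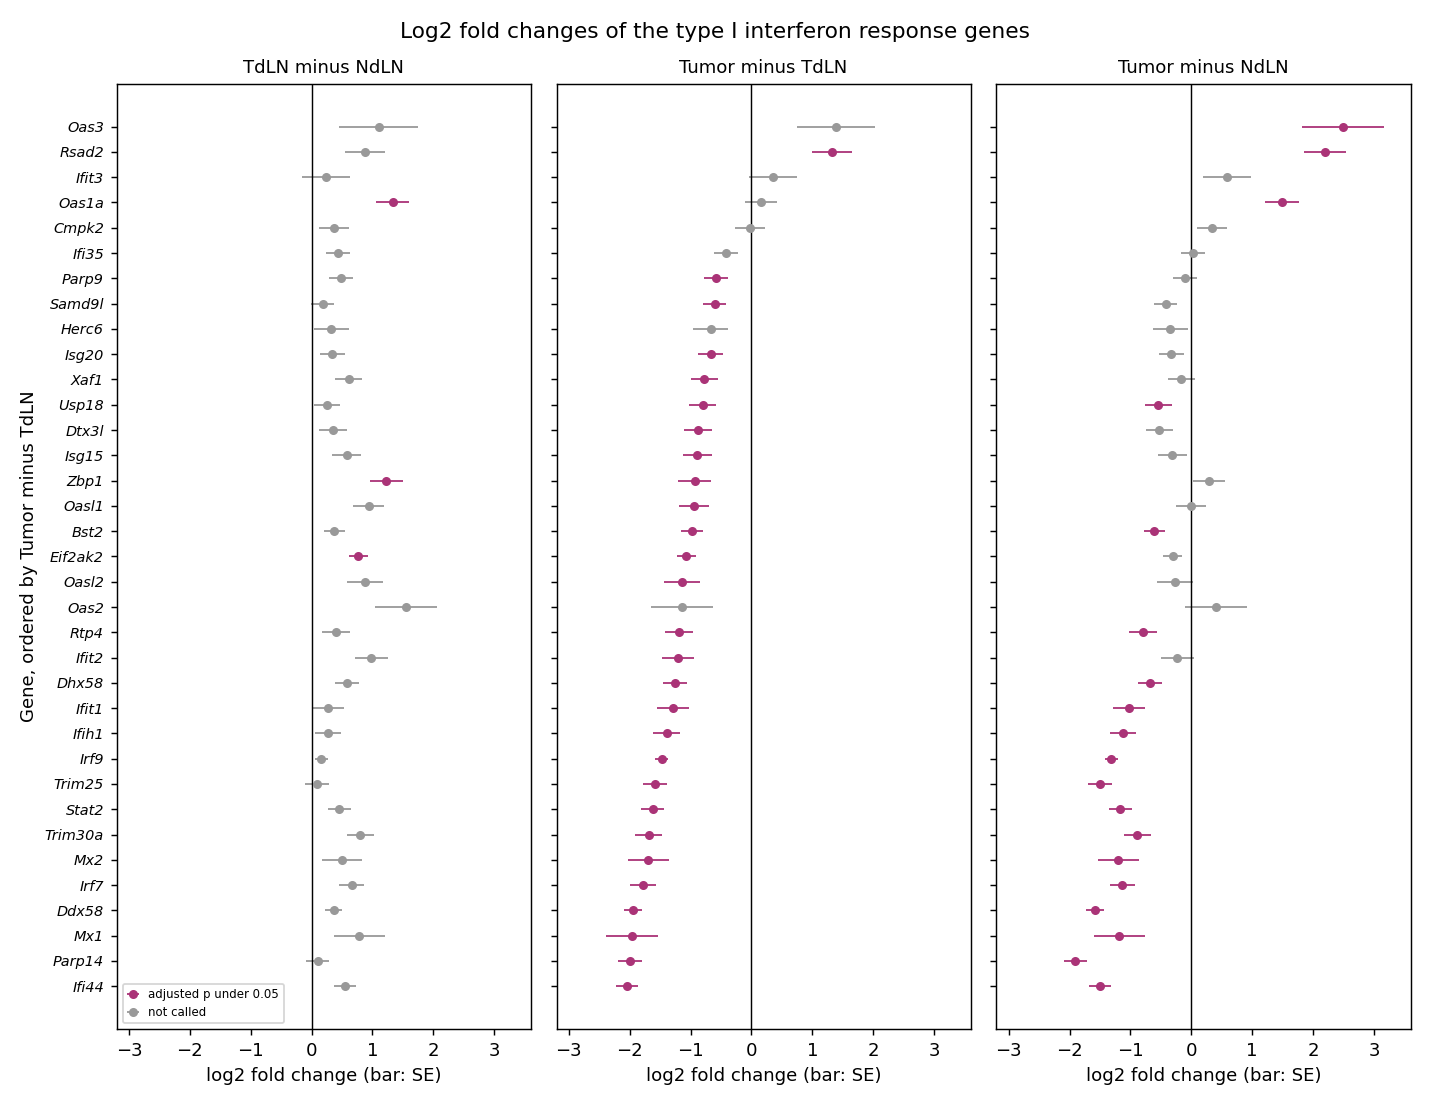
Log2 fold change of each of the 35 genes (horizontal axis, points; bars are the standard error) in the 3 comparisons (panels), ordered by Tumor minus TdLN, with genes at an adjusted p under 0.05 in purple and the others in gray. All points lie above 0 in TdLN minus NdLN, 3 of them called, and 27 are called below 0 in Tumor minus TdLN.

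All 5 sensors of foreign or misplaced nucleic acid fell from TdLN to Tumor (30.1% of all genes). Zbp1 and Eif2ak2 were higher in TdLN than in NdLN (1.84% of all genes). Zbp1 (ENSMUSG00000027514, chr2:173206612-173218923 in GRCm38), a receptor of Z-form nucleic acid that can start cell death, stood at 127, 93.4, 127, 164 and 87.6 CPM in NdLN libraries 1 to 5, at 329.8, 310.4, 369.7, 197 and 193 in TdLN and at 135, 80.1, 134, 145 and 241 in Tumor. All TdLN libraries were above all NdLN libraries, TdLN 4 and 5 were the closest to them, and Tumor 5 lay inside the TdLN range. The log2 fold change with its standard error (SE) was 1.23 ± 0.27 from NdLN to TdLN (edgeR adjusted p = 0.0222), a call that was lost when NdLN 2, NdLN 5, TdLN 1, TdLN 2 or TdLN 3 was left out, with an adjusted p of up to 0.0650. It was -0.93 ± 0.27 from TdLN to Tumor (adjusted p = 0.00726) and 0.29 ± 0.27 from NdLN to Tumor (adjusted p = 0.344). Eif2ak2 (ENSMUSG00000024079, chr17:78852564-78882573), the kinase PKR that halts translation when it binds double-stranded RNA, stood at 36.9, 28.9, 37.2, 49.9 and 35.6 CPM in NdLN, at 69.1, 70.5, 67.2, 54.4 and 59.1 in TdLN and at 39.1, 24.5, 27.9, 27.4 and 33.6 in Tumor libraries. Its TdLN libraries overlapped with neither other group. It rose by 0.76 ± 0.16 from NdLN to TdLN (edgeR adjusted p = 0.0137) and changed by -1.07 ± 0.16 from TdLN to Tumor (adjusted p = 2.64e-05). The call against NdLN held in 19 of 19 alternatives.

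The 3 cytosolic RNA helicases fell in Tumor against both nodes (30.1% of all genes against TdLN and 32.5% against NdLN). Ddx58, which encodes RIG-I, stood at 142, 146, 161, 205 and 165 CPM in NdLN, at 223, 189, 222, 212 and 207 in TdLN and at 40.9, 48.4, 50.3, 60.7 and 72.8 in Tumor libraries. The highest Tumor library, at 72.8, lay below the lowest NdLN library, while the NdLN and TdLN libraries overlapped. The log2 fold change was -1.95 ± 0.15 from TdLN to Tumor (edgeR adjusted p = 2.39e-08) and -1.58 ± 0.14 from NdLN to Tumor (adjusted p = 1.68e-07). Ifih1 stood at 55.3 ± 14.95, 66.6 ± 6.70 and 25.4 ± 8.85 CPM and Dhx58 at 74.9 ± 18.5, 112 ± 24.1 and 46.8 ± 10.5 CPM in NdLN, TdLN and Tumor libraries. Ifih1, which encodes MDA5, the sensor of long double-stranded RNA, changed by -1.39 ± 0.22 and -1.12 ± 0.22 in these 2 comparisons, and Dhx58, which encodes their regulator LGP2, by -1.26 ± 0.20 and -0.68 ± 0.20; all 4 changes passed the test, with the largest adjusted p at 0.00664. From NdLN to TdLN the 3 helicases had log2 fold changes of 0.36, 0.27 and 0.58, with adjusted p-values of 0.194, 0.574 and 0.13.

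The 3 transcription factors of the list, which carry the signal to the promoters, fell in Tumor against both nodes. For all 3 every Tumor library lay below every node library. Of all genes tested, 30.1% were called lower in Tumor than in TdLN and 32.5% lower than in NdLN. All Tumor libraries lay below all TdLN libraries for 22.5% of all genes and below all NdLN libraries for 27%. Irf9, the DNA-binding subunit of the ISRE-binding complex, stood at 225, 228, 216, 267 and 193 CPM in NdLN, at 264, 267, 265, 236 and 229.6 in TdLN and at 83.96, 76.7, 85.5, 102 and 106 in Tumor libraries. The node libraries overlapped, and its difference between nodes of 0.16 ± 0.11 (edgeR adjusted p = 0.478) was among the 3 smallest of the list. Between TdLN and Tumor it changed by -1.47 ± 0.11 (adjusted p = 2.21e-08). Stat2, its partner, stood at 92.6 ± 22.9 CPM in NdLN, at 127 ± 10.7 in TdLN and at 41.3 ± 12.3 in Tumor, a change of -1.62 ± 0.19 from TdLN to Tumor (adjusted p = 3.01e-06). Irf7, the factor that amplifies transcription of interferon alpha genes, stood at 359 ± 92.6, 565 ± 138 and 164 ± 37.02 CPM, a change of -1.79 ± 0.21 (adjusted p = 3.87e-06). Against NdLN, the log2 fold change in Tumor was -1.31 ± 0.11 for Irf9 (adjusted p = 6.27e-08), -1.17 ± 0.19 for Stat2 (adjusted p = 5.78e-05) and -1.13 ± 0.21 for Irf7 (adjusted p = 0.000224). Between the nodes Stat2 and Irf7 had values of 0.45 ± 0.19 and 0.66 ± 0.21 that did not pass the test (adjusted p = 0.214 and 0.109). In the annotation Irf9 overlaps the neighbouring gene Rnf31 on the same strand, and Irf7 overlaps Phrf1 on the opposite strand. The library kit does not mark strand, so reads of both overlaps cannot be assigned with certainty.

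The oligoadenylate synthetases make the messenger that activates RNase L, which degrades RNA. In this family 0 of 5 genes fell and 2 rose from NdLN to Tumor (32.5% and 34% of all genes), while 2 of 5 fell from TdLN to Tumor (30.1% of all genes), numbers too small to set the family apart from all genes. Oas1a (ENSMUSG00000052776, chr5:120896256-120907521), whose promoter with 2 overlapping core matches is shown above, stood at 27.4, 22.3, 32.97, 40.4 and 20.4 CPM in NdLN, at 95.04, 87.3, 84.6, 45.02 and 48.6 in TdLN and at 116, 50.1, 64.7, 74.97 and 96.6 in Tumor libraries. Every TdLN and every Tumor library lay above every NdLN library, and the TdLN and Tumor libraries overlapped. The log2 fold change was 1.33 ± 0.27 from NdLN to TdLN (edgeR adjusted p = 0.0154), 1.49 ± 0.27 from NdLN to Tumor (adjusted p = 0.000203) and 0.16 ± 0.27 from TdLN to Tumor (adjusted p = 0.627). Its close relative Oas1g, which is not on the list of 35, stood at 1.68 ± 0.839, 8.42 ± 4.92 and 15.5 ± 7.46 CPM in the same order and was also called higher in TdLN (2.33 ± 0.50, adjusted p = 0.0187). How reads that fit both copies were counted is not stated, so both levels are uncertain.

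Oas2 and Oas3, the larger synthetases, were low and varied widely between libraries. Oas2 stood at 2.33, 2.72, 5.29, 8.82 and 4.04 CPM in NdLN, at 21.1, 18.6, 18.2, 5.83 and 4.30 in TdLN and at 4.87, 4.83, 2.98, 5.09 and 12.95 in Tumor libraries. TdLN 1 to 3 were high and TdLN 4 and 5 lay within the NdLN range, and the log2 fold change of 1.55 ± 0.52 did not pass the test (edgeR adjusted p = 0.126). Oas3 stood at 0.670, 1.36, 3.17, 1.34 and 2.79 CPM in NdLN, at 8.23, 2.63, 6.82, 0.704 and 1.71 in TdLN and at 3.11, 9.34, 7.47, 9.02 and 23.6 in Tumor libraries. Tumor 1 lay inside the NdLN range, and Tumor 5 stood above every other library. In the TdLN group, TdLN 1 and 3 were the high ones. The log2 fold change of Oas3 was 2.49 ± 0.67 from NdLN to Tumor (edgeR adjusted p = 0.00408) and 1.10 ± 0.65 from NdLN to TdLN (adjusted p = 0.408). From TdLN to Tumor it was 1.39 ± 0.64 (edgeR adjusted p = 0.0724). That change was called with DESeq2, with limma's voom, without TdLN 1 or without Tumor 1.

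Both OAS-like genes fell from TdLN to Tumor, as most genes of the list did. Oasl1, an inhibitor of Irf7 translation in mice, ran from 23.8 to 51.1 CPM in NdLN, from 55.6 to 87.7 in TdLN and from 21.4 to 46.2 in Tumor libraries. Its TdLN libraries overlapped with neither other group, its difference of 0.94 ± 0.25 from NdLN to TdLN missed the threshold (edgeR adjusted p = 0.0544) and its change of -0.94 ± 0.25 from TdLN to Tumor passed (adjusted p = 0.00445). Oasl2 stood at 66.99 ± 34.4 CPM in NdLN, at 122 ± 18.5 in TdLN and at 55.4 ± 19.8 in Tumor libraries, and changed by -1.14 ± 0.30 from TdLN to Tumor (adjusted p = 0.00357). The log2 fold change from NdLN to Tumor was -0.000977 for Oasl1 and -0.27 for Oasl2, with edgeR adjusted p-values of 0.997 and 0.426.

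The IFIT proteins bind viral RNA, and Ifit1 and Ifit2 fell from TdLN to Tumor while Ifit3 did not pass the test in any comparison. Ifit3 stood at 25.1, 14.8, 27.7, 63.1 and 20.3 CPM in NdLN, at 28.1, 23.7, 50.8, 39.2 and 36.3 in TdLN and at 51.2, 30.02, 25.3, 33.4 and 87.9 in Tumor libraries. The groups overlapped throughout, NdLN 4, TdLN 3 and Tumor 5 were the highest of their groups, and the log2 fold change from TdLN to Tumor was 0.35 ± 0.40 (edgeR adjusted p = 0.453). Ifit1 ran from 66.7 to 199.6 CPM in NdLN, from 99.9 to 178 in TdLN and from 37.7 to 75.3 in Tumor libraries. It changed by -1.29 ± 0.26 from TdLN to Tumor (adjusted p = 0.000582) and by -1.02 ± 0.26 from NdLN to Tumor (adjusted p = 0.00306). Ifit2 ran from 58.3 to 125 CPM in NdLN, from 89.5 to 218 in TdLN and from 50.2 to 87.4 in Tumor libraries and changed by -1.21 ± 0.27 from TdLN to Tumor (adjusted p = 0.00112). Its difference from NdLN to TdLN was 0.98 ± 0.27 (adjusted p = 0.0582). Ifit1 and Ifit3 have close copies in the cluster on chromosome 19, so their counts are uncertain.

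**Figure D3:**
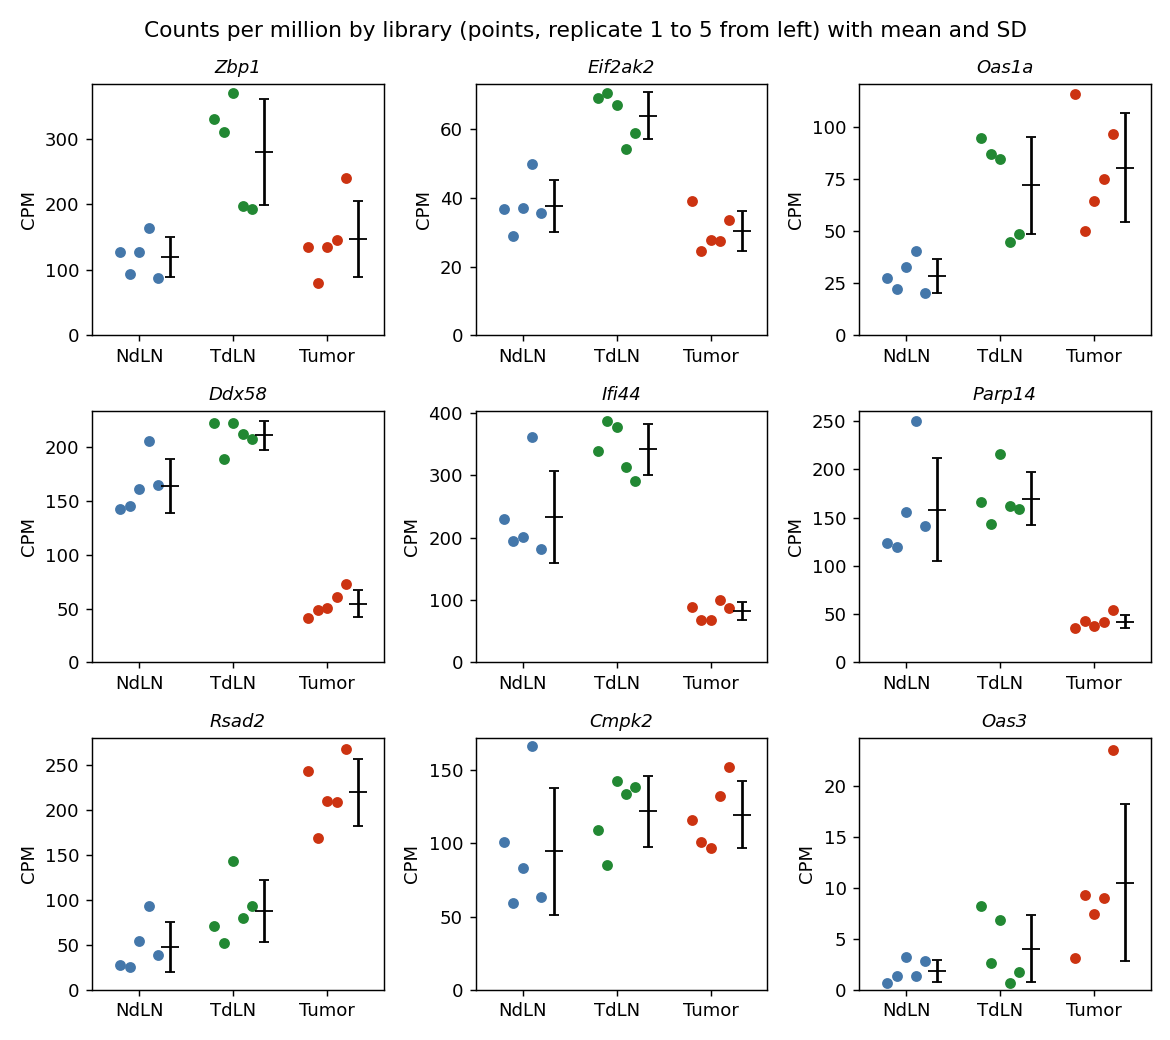
CPM of 9 genes (vertical axes) in each library (points, replicates 1 to 5 from left) by group (horizontal axes), with mean and SD as bars. Zbp1, Eif2ak2 and Oas1a are higher in all TdLN than in all NdLN libraries, Ddx58, Ifi44 and Parp14 are lower in all Tumor than in all node libraries, and Rsad2 is higher in all Tumor than in all node libraries.

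ISG15 is a ubiquitin-like protein that is attached to other proteins. Of the 5 genes of its system and of related ligases, 4 fell from TdLN to Tumor (30.1% of all genes). Trim25, the ubiquitin ligase that activates RIG-I, stood at 77.6, 103, 94.3, 116 and 87.6 CPM in NdLN, at 92.6, 116, 113, 81.9 and 104 in TdLN and at 17.9, 32.1, 39.7, 34.9 and 43.9 in Tumor libraries. Its difference between the nodes, 0.09 ± 0.19 (edgeR adjusted p = 0.862), was the smallest of the list, and every Tumor library lay below every node library. It changed by -1.59 ± 0.20 from TdLN to Tumor (adjusted p = 5.71e-06) and by -1.50 ± 0.20 from NdLN to Tumor (adjusted p = 7.91e-06). Isg15 itself stood at 123 ± 36.6 CPM in NdLN, at 183 ± 36.4 in TdLN and at 98.9 ± 32.9 in Tumor libraries, a change of -0.89 ± 0.24 from TdLN to Tumor (adjusted p = 0.00502) with overlap of the groups. Usp18, which removes ISG15 and restrains the type I receptor, changed by -0.80 ± 0.22 from TdLN to Tumor (adjusted p = 0.00494) and by -0.54 ± 0.22 from NdLN to Tumor (adjusted p = 0.0382), a call that was lost without NdLN 1, NdLN 4, Tumor 2, Tumor 3 or Tumor 4, with an adjusted p of up to 0.126. Usp18 stood at 172 ± 50.1, 206 ± 39.9 and 118 ± 32.03 CPM, and TdLN 3 was the highest library. Dtx3l, a ubiquitin ligase, stood at 64.8 ± 11.6, 83.01 ± 13.1 and 45.1 ± 19.1 CPM and changed by -0.88 ± 0.23 from TdLN to Tumor (adjusted p = 0.0037). Herc6, which attaches ISG15 in mice, was not called, at 68.6 ± 23.4, 85.8 ± 11.9 and 53.97 ± 26.3 CPM and -0.67 ± 0.28 from TdLN to Tumor (adjusted p = 0.0523).

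Among the 7 restriction factors, 5 fell from TdLN to Tumor and Rsad2 rose (30.1% and 31.9% of all genes). Rsad2 (ENSMUSG00000020641, chr12:26442746-26456452) encodes viperin, which makes a nucleotide that ends viral RNA chains, and its promoter is shown above. It stood at 27.01, 25.5, 53.7, 93.7 and 39.1 CPM in NdLN, at 71.1, 51.7, 143, 79.8 and 93.5 in TdLN and at 243, 169, 210.5, 209 and 268 in Tumor libraries. Every Tumor library lay above every node library, and the node libraries overlapped. The log2 fold change was 1.32 ± 0.34 from TdLN to Tumor (edgeR adjusted p = 0.00304), 2.20 ± 0.35 from NdLN to Tumor (adjusted p = 4.51e-05) and 0.88 ± 0.33 from NdLN to TdLN (adjusted p = 0.182). Cmpk2, a nucleotide kinase gene whose neighbour on chromosome 12 is Rsad2, 12752 bases away on the opposite strand, stood at 94.7 ± 43.5, 122 ± 24.3 and 119.7 ± 22.9 CPM and had a log2 fold change of -0.03 ± 0.25 from TdLN to Tumor (adjusted p = 0.933). The difference between these neighbours was not tested.

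Mx1 and Mx2 encode dynamin-like proteins that block the entry or transcription of viruses, and both fell in Tumor. Mx1, which carries an inactivating deletion in most laboratory strains, stood at 5.74, 4.09, 8.74, 15.99 and 9.76 CPM in NdLN, at 11.6, 12.3, 24.1, 14.00 and 14.2 in TdLN and at 2.99, 3.07, 1.32, 4.63 and 7.53 in Tumor libraries. Tumor 5 stood highest in its group and inside the NdLN range, and every Tumor library lay below every TdLN library. The change of Mx1 was -1.96 ± 0.43 from TdLN to Tumor (edgeR adjusted p = 0.0011), and that of Mx2, at 7.61 ± 2.91, 10.7 ± 2.97 and 3.32 ± 1.30 CPM, was -1.70 ± 0.34 (adjusted p = 0.000437). From NdLN to Tumor, Mx1 changed by -1.18 ± 0.43 (adjusted p = 0.0235), a call that was lost without NdLN 4, Tumor 1 or Tumor 2, with an adjusted p of up to 0.0835. Bst2, which tethers budding virus to the cell surface, stood at 659.8 ± 97.7 CPM in NdLN, at 853 ± 124 in TdLN and at 434 ± 115 in Tumor libraries. It changed by -0.98 ± 0.17 from TdLN to Tumor (adjusted p = 0.000182), with no overlap of these groups, and by -0.61 ± 0.17 from NdLN to Tumor (adjusted p = 0.00625), with overlap. The nuclease gene Isg20 and Samd9l, an inhibitor of translation, changed by -0.67 ± 0.20 (adjusted p = 0.00945) and -0.60 ± 0.18 (adjusted p = 0.00989) from TdLN to Tumor, with overlap. Isg20 stood at 22.3 ± 6.01, 28.4 ± 5.24 and 17.8 ± 4.28 CPM and Samd9l at 86.4 ± 23.8, 97.96 ± 18.9 and 64.5 ± 11.4 CPM in NdLN, TdLN and Tumor libraries.

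The remaining 7 induced genes held the 2 lowest log2 fold changes from TdLN to Tumor. In that comparison 6 of the 7 fell (30.1% of all genes). Ifi44, an interferon-induced gene of poorly known function, stood at 229.8, 195, 200.4, 362 and 182 CPM in NdLN, at 339, 388, 377, 313 and 291 in TdLN and at 89.4, 68.4, 68.6, 101 and 87.7 in Tumor libraries. NdLN 4 alone among the NdLN libraries reached the TdLN range, and every Tumor library lay below every node library. The change was -2.04 ± 0.18 from TdLN to Tumor (edgeR adjusted p = 1.82e-07) and -1.49 ± 0.18 from NdLN to Tumor (adjusted p = 3.37e-06). Parp14, an ADP-ribosyltransferase gene, stood at 124, 119, 156, 249.7 and 142 CPM in NdLN, at 166, 143, 216, 162 and 159 in TdLN and at 35.8, 42.6, 37.7, 41.4 and 53.9 in Tumor libraries. Between the nodes it differed by 0.10 ± 0.19 (adjusted p = 0.836), and NdLN 4 was above every TdLN library. It changed by -2.001 ± 0.20 from TdLN to Tumor (adjusted p = 4.63e-07) and from NdLN to Tumor by -1.90 ± 0.20 (adjusted p = 6.2e-07), the lowest value of that comparison.

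The other genes of this role moved less. Parp9, the partner of Dtx3l, changed by -0.59 ± 0.19 from TdLN to Tumor (edgeR adjusted p = 0.016). It stood at 68.99 ± 9.90, 96.8 ± 13.6 and 64.4 ± 24.2 CPM, and overlaps Dtx3l on the opposite strand of chromosome 16, so some reads of the pair cannot be told apart without strand. Trim30a, a negative regulator of Toll-like receptor signalling, stood at 83.1 ± 24.8, 145 ± 19.9 and 45.02 ± 13.6 CPM and changed by -1.69 ± 0.22 (adjusted p = 8.9e-06), while its difference from NdLN to TdLN, 0.80 ± 0.21, missed the threshold (adjusted p = 0.0539). Rtp4, a Golgi chaperone gene that overlaps Masp1, changed by -1.19 ± 0.23 (adjusted p = 0.000409), and Xaf1, which antagonises an inhibitor of apoptosis, by -0.77 ± 0.22 (adjusted p = 0.00681). Rtp4 stood at 103 ± 24.2, 136 ± 19.05 and 59.4 ± 22.6 CPM and Xaf1 at 82.6 ± 18.9, 126 ± 22.2 and 73.7 ± 24.5 CPM. Trim30a and Rtp4 also fell from NdLN to Tumor, by 0.88 ± 0.22 (adjusted p = 0.00202) and 0.79 ± 0.23 (adjusted p = 0.00717) on the log2 scale. For Parp9 and Xaf1 that comparison gave -0.10 ± 0.19 and -0.16 ± 0.22 (adjusted p = 0.669 and 0.525). Ifi35 was not called, at 154 ± 30.2, 209 ± 28.1 and 157 ± 50.1 CPM and -0.41 ± 0.20 from TdLN to Tumor (adjusted p = 0.0825).

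**Figure D4:**
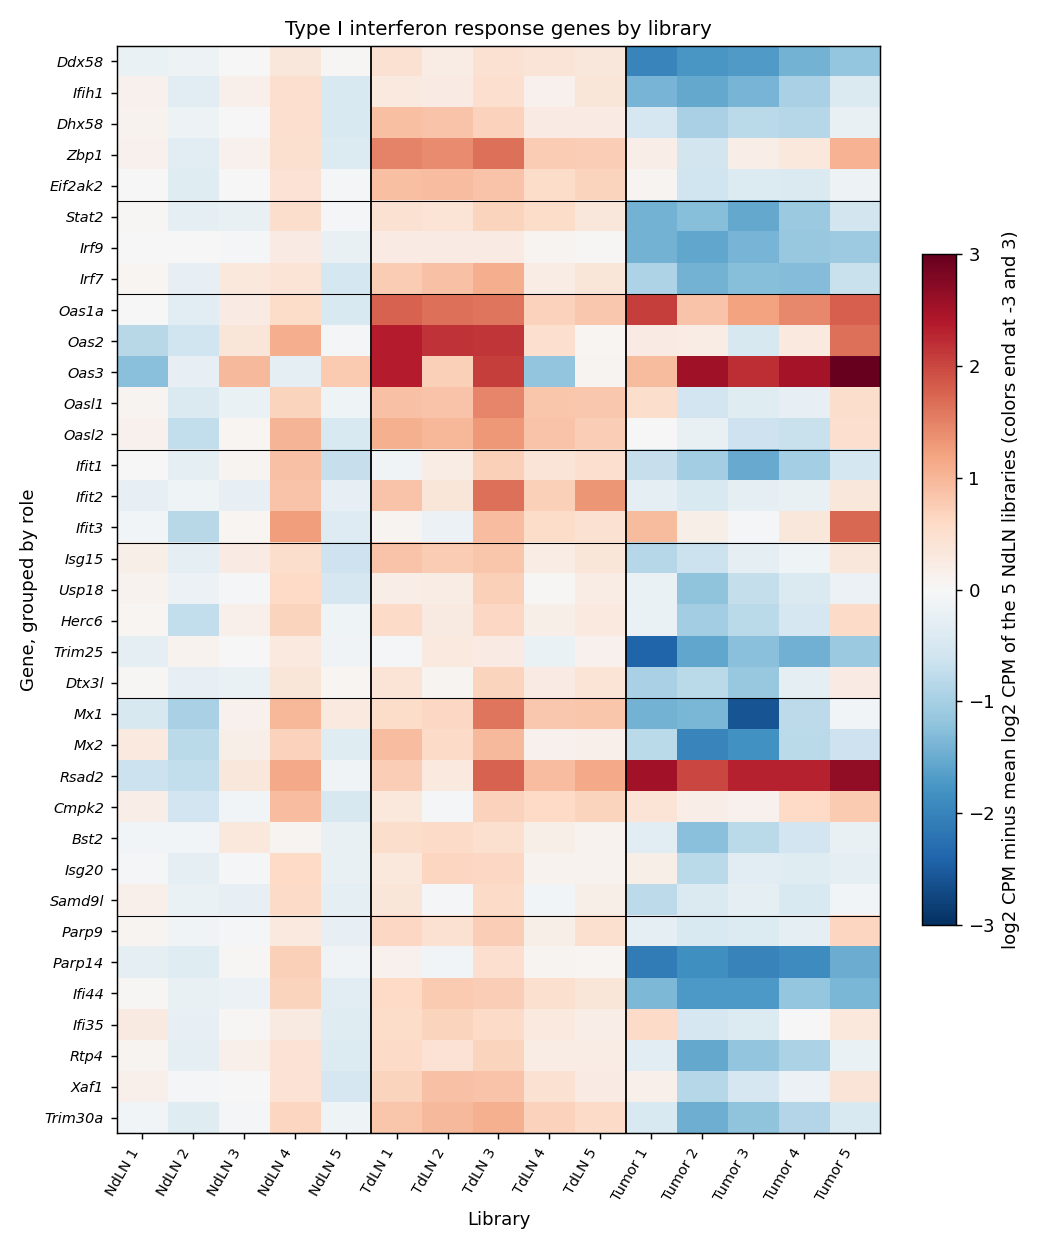
Log2 CPM minus the mean log2 CPM of the 5 NdLN libraries (color, ending at -3 and 3) for the 35 genes (vertical axis, grouped by role with lines between roles) in each of the 15 libraries (horizontal axis). The TdLN columns are mostly red, and the Tumor columns are mostly blue, with Rsad2, Oas1a and Oas3 red.

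Read per kilobase of exon (GENCODE M21), the order of the genes was led by the same gene in every group. Bst2 stood highest, at 731 CPM per kb in NdLN, 944 in TdLN but 480.3 in Tumor libraries, and Isg15 was next, at 162, 242 and 131. Rsad2 took rank 27 of 35 in NdLN, rank 21 in TdLN and rank 4 in Tumor libraries, at 11.03, 20.3 and 50.7 CPM per kb. Oas1a moved from rank 22 to 11 and 6. Parp14 moved the other way, from rank 18 to 24 and 30, and Ddx58 from 11 to 15 and 25. Oas3 was last in both nodes and took rank 32 in Tumor, so its rise from NdLN to Tumor was that of a gene at a low level.

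Endothelial markers held a smaller share of counts in Tumor than in node libraries, and the genes were also read per library as a ratio of their CPM to that of an endothelial gene. The direction of the Tumor comparisons differed with the gene chosen. The lymphatic markers did not move together: from TdLN to Tumor, Prox1 changed by -2.36 ± 0.15 (edgeR adjusted p = 3.3e-09), Pdpn had a value of -0.05 ± 0.26 (adjusted p = 0.889), and Ccl21a, a chemokine gene of lymphatic vessels whose close copies make its count uncertain, and Reln, a secreted matrix protein gene, rose by 3.18 ± 0.37 (adjusted p = 2.85e-06) and 1.24 ± 0.27 (adjusted p = 0.000929), with a median of -0.78 over the 10 markers. As a ratio to Prox1, 35 of the 35 genes had a higher mean in Tumor than in TdLN libraries, and to Pecam1 35 did, while to Pdpn 6 did. Against NdLN, these numbers were 35, 35 and 16. Pdpn stood at 41.0 CPM in Tumor 1 but at 110, 162, 143 and 126 in Tumor 2 to 5, which raises the ratios to Pdpn in Tumor 1. How far the Pdpn numbers rest on that library was not tested.

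The groups of libraries were compared on the same ratios. All Tumor libraries lay above all TdLN libraries for 25 of the 35 genes by Prox1 (71.4%, against 76.9% of all genes tested), for 15 by Pecam1 (42.9%, against 74.5%) and for 1, Rsad2, by Pdpn (2.86%, against 18.4%). By Pdpn all Tumor libraries lay below all TdLN libraries for 7 genes (20%, against 10.9% of all genes), which were Ddx58, Ifih1, Stat2, Trim25, Mx1, Parp14 and Ifi44. Tumor 1, with its low Pdpn, enters each of the counts by Pdpn. Against NdLN all Tumor libraries lay above for 33 genes by Prox1 (94.3%, against 81.9%), for 30 by Pecam1 (85.7%, against 79.3%) and for 3 by Pdpn (8.57%, against 22.9%), and below by Pdpn for 1, Trim25 (2.86%, against 12.2%). The ratio of Ddx58 to Prox1 was 0.214 ± 0.0298, 0.396 ± 0.043 and 0.54 ± 0.162 in NdLN, TdLN and Tumor libraries, and its ratio to Pdpn was 1.37 ± 0.388, 1.78 ± 0.29 and 0.55 ± 0.267. Rsad2 stood above every TdLN library in every Tumor library on all 3 ratios, at 0.0619 ± 0.0349, 0.159 ± 0.0419 and 2.24 ± 0.831 of Prox1 and 0.412 ± 0.286, 0.732 ± 0.251 and 2.47 ± 1.96 of Pdpn. Which cells made the transcripts cannot be told apart in these libraries.

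The rest of the pathway was read from lists of named genes. The ligands were almost absent: of 20 type I and III interferon genes, 19 were in the table and 3 had any count, 48 counts in all 15 libraries. Ifnb1 had 20 counts, Ifnz 27 and Ifnl2 1, the latter in Tumor 2. Ifnz, an interferon zeta gene, had 5 counts over the NdLN, 9 over the TdLN and 13 over the Tumor libraries. The 0 counts of Ifnb1 over the 5 NdLN libraries allow a level of up to 0.0170 CPM for the group, by counting error alone.

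The receptor and its kinases were expressed, and Jak1, Ifnar2 and Stat3 fell from TdLN to Tumor. Jak1, the kinase bound to the receptor, stood at 2111 ± 447 CPM in NdLN, at 2417 ± 175 in TdLN and at 273 ± 45.8 in Tumor libraries and changed by -3.15 ± 0.16 from TdLN to Tumor (edgeR adjusted p = 3.82e-10). Ifnar2 changed by -1.60 ± 0.10 (adjusted p = 3.7e-09) and Stat3, a factor shared with other cytokines, by -0.97 ± 0.10 (adjusted p = 1.17e-06). Ifnar1 had a log2 fold change of -0.36 ± 0.15 (adjusted p = 0.0514). Between the nodes the log2 fold change was 0.20 ± 0.15 for Jak1 (adjusted p = 0.549) and -0.05 ± 0.10 for Ifnar2 (adjusted p = 0.846). Of the 4 receptor genes of other interferons, 2 fell and 2 rose from TdLN to Tumor (30.1% and 31.9% of all genes). Ifngr1 and Ifngr2, which form the interferon gamma receptor, changed by -1.79 ± 0.10 (adjusted p = 1.31e-09) and -0.80 ± 0.17 (adjusted p = 0.000832). Il10rb, a chain of the interferon lambda and interleukin 10 receptors, changed by 0.45 ± 0.12 (adjusted p = 0.00331), and Ifnlr1, of the interferon lambda receptor, had 11 counts over the NdLN, 2 over the TdLN and 206 over the Tumor libraries.

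Upstream of the interferons, 1 of 14 tested genes of sensing and induction was called higher and 0 lower in TdLN than in NdLN (1.84% and 1.64% of all genes). Tmem173, which encodes STING, the adaptor of cytosolic DNA sensing, rose from 713 ± 96.8 to 1087 ± 71.3 CPM (0.61 ± 0.11, edgeR adjusted p = 0.00627) and stood at 277 ± 32.2 in Tumor libraries (-1.97 ± 0.11, adjusted p = 1.05e-09). Of the 14, 9 fell and 1 rose from TdLN to Tumor (30.1% and 31.9% of all genes), with Tlr4, the receptor of bacterial lipopolysaccharide, at -3.44 ± 0.24 (adjusted p = 1.2e-08) and Myd88, its adaptor, at -1.14 ± 0.13 (adjusted p = 2.54e-06). Tlr3, the endosomal receptor of double-stranded RNA, changed by -0.98 ± 0.15 (adjusted p = 3.99e-05). Of 11 negative regulators, 1 rose and 1 fell from NdLN to TdLN (1.84% and 1.64% of all genes). Ptpn2, a phosphatase of JAK and STAT proteins, changed by 0.58 ± 0.13 (adjusted p = 0.0205), and Socs3, a feedback inhibitor of cytokine receptors, by -0.97 ± 0.22 (adjusted p = 0.0242). Of the 11, 7 fell and 1 rose from TdLN to Tumor (30.1% and 31.9% of all genes), among them Trex1, the nuclease that clears cytosolic DNA, at -2.20 ± 0.19 (adjusted p = 1.27e-07), Pias1, an inhibitor of STAT signalling, at -0.97 ± 0.09 (adjusted p = 4.33e-07) and Irf2, a repressor of induced promoters, at -1.29 ± 0.14 (adjusted p = 1.63e-06).

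Further interferon-induced genes that are not among the 35 were counted as well. Of 51 tested, 7 were called higher and 0 lower in TdLN than in NdLN libraries (1.84% and 1.64% of all genes). At an unadjusted p under 0.05 there were 19 in either direction (17.6% of all genes), and the median log2 fold change was 0.41. From TdLN to Tumor 31 fell and 7 rose (30.1% and 31.9% of all genes), with a median of -0.91. From NdLN to Tumor 22 fell and 13 rose (32.5% and 34% of all genes), with a median of -0.48. The DNA-binding genes Ifi204 and Ifi205 of the p200 family were called higher in each of the 3 comparisons. Ifi205 had 23 counts over the NdLN, 408 over the TdLN and 5676 over the Tumor libraries, and Ifi204 stood at 9.78 ± 5.08, 33.7 ± 14.4 and 69.5 ± 17.1 CPM. Slfn9, of the Schlafen family, changed by 1.84 ± 0.33 from NdLN to TdLN (edgeR adjusted p = 0.00681), and Mlkl, which executes necroptosis, by 0.67 ± 0.14 (adjusted p = 0.0164). From TdLN to Tumor, Ly6e, a membrane-anchored restriction factor of coronaviruses, changed by -2.25 ± 0.14 (adjusted p = 4.23e-09), Slfn5 by -2.52 ± 0.17 (adjusted p = 6.02e-09), Trim34a by -2.39 ± 0.17 (adjusted p = 1.69e-08) and Uba7, the enzyme that activates ISG15 for conjugation, by -1.98 ± 0.15 (adjusted p = 2.86e-08). Uba7 stood at 194 ± 22.1, 261 ± 36.5 and 66.2 ± 15.5 CPM.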

How the data were processed

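RNA of sorted lymphatic endothelial cells was sequenced in 15 libraries, from 1 ng of RNA amplified with a SMARTer Ultra Low kit, which does not mark strand, as single reads of 50 bases in pools of 10 libraries, per the labels' protocols. The values are raw counts per gene, made by the authors with CASAVA 1.8.2, STAR 2.4 and featureCounts 1.4.6 on GRCm38, per the submitters' processing notes; for the annotation release and the strand setting, the sources used here give nothing. Of 21839 deposited gene identifiers, 21628 matched GENCODE M21 symbols, and the 211 others held 0.0859% of counts.

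Groups were taken from the sample labels. Counts of all 15 libraries were fitted together with edgeR 4.0.16 (TMM factors, filterByExpr, robust quasi-likelihood test), and p-values were adjusted over the 13887 genes tested by the Benjamini-Hochberg method, with calls under 0.05. The standard error of a log2 fold change is its size divided by the square root of F. The procedure was tested on simulated counts. No pair of libraries agreed within sampling noise. The 35 genes and all other lists were chosen with earlier results of these data known. Per-library values are given for genes called between the nodes, for the 3 highest and 3 lowest log2 fold changes of each comparison and for genes called against the majority in Tumor. Of each further list up to 4 called genes per comparison with the smallest adjusted p could be named. Alternatives were RLE and upper-quartile scaling, no filter, a filter at a CPM of 10 in 5 libraries, a replicate block, DESeq2 1.42.0, limma 3.58.1 (voom with quality weights), only the groups compared, and each library left out in turn. A fit without NdLN 4, TdLN 3 and Tumor 5 together, and ratios to Pecam1 and Pdpn beside Prox1, were chosen after seeing the data. The libraries of that fit were those in which most of the 35 genes were highest in their group. Promoter letters came from RefSeq (GRCm38.p6). 1 gene of the signalling list is not reported here.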

Additional observations from a re-analysis of the deposited data

Results flagged for a closer look

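In 12 of 105 sets of 5 libraries (35 genes in 3 groups), 1 library stood apart from the other 4 by Dixon's criterion. Chance meets it in about 1 of 20 sets where values are normally distributed. CPM were used here without a log, and the share over all genes tested was not counted, so 12 cannot be called unusual for these data. All 12 were the highest value of their set, and all 12 came from NdLN 4, TdLN 3 or Tumor 5. The genes are read in the same libraries and their sets are not independent.

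NdLN 4 stood apart for 6 genes. Ifit2 stood at 125 CPM there, with the next NdLN library at 63.1, and Ifit3 at 63.1, with the next at 27.7. The nuclease gene Isg20 stood at 32.8 CPM, with the next at 21.2, and Parp14 at 249.7, with the next at 156. Ifi44 reached 362 CPM, with the next at 229.8, and Trim30a 126, with the next at 76.9.

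TdLN 3 stood apart for 3 genes. Oasl1 stood at 87.7 CPM there, with the next TdLN library at 59.2, Usp18 at 275, with the next at 196, and Mx1 at 24.1, with the next at 14.2. Tumor 5 stood apart for 3 genes as well. Oas2 stood at 13.0 CPM there, with the next Tumor library at 5.09, Ifit2 at 87.4, with the next at 58.8, and Parp9 at 107, with the next at 56.8.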

How the results depend on the processing

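Counts of genes called among the 35 moved in all 3 comparisons. The number called higher in TdLN than in NdLN was 3, and it was 7 with DESeq2, 5 with limma's voom, 6 with only these groups, 9 without NdLN 4, TdLN 3 and Tumor 5 together and 2 to 9 with 1 library left out. Over all genes the calls of this comparison were 484, against 994, 818 and 698 in the first 3 of these settings, and the cause was not tested. The number higher in Tumor than in NdLN was 3, was 5 without the 3 libraries and 3 to 5 with 1 left out. The number higher in Tumor than in TdLN was 1, and it was 2 with DESeq2, 2 with voom and 1 to 2 with 1 library left out. The number lower in Tumor than in NdLN was 16, and it was 14 without NdLN 4 or Tumor 2 and 20 without Tumor 5. The number lower in Tumor than in TdLN was 27, and 27 to 29 with 1 left out. With a replicate block, 2 genes were called higher in TdLN, and Zbp1 had an adjusted p of 0.0552. The block also ended the call of Usp18 from NdLN to Tumor (adjusted p = 0.0536). The labels do not say that libraries of the same number are pairs, so the main fit had no block. Deviations of libraries of the same number had correlations of -0.09 to 0.25, -0.21 to -0.04 and -0.09 to 0.19 in the 3 comparisons. They were best with their own number in 1, 0 and 2 of 5. Such correlations between different tissues cannot show whether libraries of the same number came from the same animal. The median log2 fold changes of the 35 genes kept their sign with each library left out, at 0.38 to 0.70, -1.18 to -0.97 and -0.64 to -0.26. Values that changed sign were those of genes not called. From NdLN to TdLN Parp14 stood at -0.0105 with voom and at -0.00406 to 0.32 with 1 library left out. From NdLN to Tumor Ifi35 stood at -0.0150 with upper-quartile scaling, -0.0893 with voom and -0.13 to 0.11 with 1 left out, and Oasl1 at 0.0122 without a filter, 0.0563 without the 3 libraries and -0.15 to 0.20 with 1 left out. In the same comparison the ranges with 1 left out were -0.38 to 0.053 for Ifit2, -0.49 to 0.069 for Oasl2 (both above 0 only without NdLN 4) and -0.064 to 0.77 for Oas2 (below 0 without Tumor 5). From TdLN to Tumor Cmpk2 stood at 0.00334 with voom and -0.14 to 0.030 with 1 left out, Ifit3 at -0.029 to 0.51 and Oas1a at -0.013 to 0.27. No scaling moved the median of all genes by more than 0.1. Oas2, Oas3 and Mx2 did not pass the filter at a CPM of 10 in 5 libraries and have no value there.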

Other observations

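Several of the 35 genes lie side by side in the genome, and neighbours did not always stand on the same side. Oas2 and Oas3 lie on the same strand of chromosome 5, 3245 bases apart. From TdLN to Tumor their log2 fold changes were -1.15 ± 0.51 and 1.39 ± 0.64 (edgeR adjusted p = 0.0627 and 0.0724), and neither passed that test. Both were called with DESeq2 (adjusted p = 0.0418 and 0.0477), and Oas3 also with limma's voom (adjusted p = 0.0054). Ifit2 and Ifit3 lie 7112 bases apart on the same strand of chromosome 19, and their values were -1.21 ± 0.27 (adjusted p = 0.00112) and 0.35 ± 0.40 (adjusted p = 0.453). Oasl1 and Oasl2, 11006 bases apart, stood at -0.94 ± 0.25 and -1.14 ± 0.30, and both passed. Mx1 and Mx2, on opposite strands 72401 bases apart, stood at -1.96 ± 0.43 and -1.70 ± 0.34, and both passed. The differences within these pairs were not tested.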
